A study of Mus musculus with 18 samples.

Results

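Chrna1, Chrnb1, Chrnd, Chrng, Musk and Rapsn are the genes of the embryonic muscle acetylcholine receptor and of 2 proteins that gather it under the motor nerve ending. The 6 genes were taken by symbol from tables that list 23929 genes each, and all 6 were found at every stage. They were measured by RNA-seq in C57BL/6 mouse embryos, in 6 groups of 3 libraries. The groups were Pitx1 KO (Pitx1-/-) and wild type, each at embryonic day 9.5 (E9.5), E11.5 and E12.5. At E9.5 the tissue was the hindlimb field together with trunk tissue next to it, and at E11.5 and E12.5 it was the hindlimb. Pitx1 encodes a homeodomain transcription factor of the hindlimb, and the labels name no restriction of its loss to a tissue. The labels do not say whether the 3 libraries of a group came from separate embryos, so p-values measure the spread between these libraries, which may be technical.

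The muscle acetylcholine receptor is the ion channel that opens when a motor neuron releases acetylcholine onto a muscle fibre. Before birth it is built from the alpha, beta, delta and gamma subunits encoded by Chrna1, Chrnb1, Chrnd and Chrng, and later the epsilon subunit, encoded by Chrne, takes the place of gamma. MuSK, encoded by Musk, is the receptor tyrosine kinase that receives the nerve signal agrin through its partner Lrp4, and rapsyn, encoded by Rapsn, is the scaffold that anchors receptors in clusters. Transcription of the subunit genes begins as myoblasts differentiate and fuse, and E-boxes in their promoters are known binding sites of MyoD-family factors.

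Promoter sequence was available here for 4 of the 6 genes, Chrna1, Chrnb1, Chrng and Musk. It is shown because these genes move together across the hindlimb libraries. Each line below gives the 250 bases before the annotated start from RefSeq (GRCm38.p6), on the gene's own strand, with every E-box (CANNTG, which reads the same on both strands) in capitals. The windows are chr2:73580339-73580588 on the minus strand for Chrna1, chr11:69795938-69796187 on the minus strand for Chrnb1, chr1:87205561-87205810 on the plus strand for Chrng, and chr4:58285712-58285961 on the plus strand for Musk.
Chrna1: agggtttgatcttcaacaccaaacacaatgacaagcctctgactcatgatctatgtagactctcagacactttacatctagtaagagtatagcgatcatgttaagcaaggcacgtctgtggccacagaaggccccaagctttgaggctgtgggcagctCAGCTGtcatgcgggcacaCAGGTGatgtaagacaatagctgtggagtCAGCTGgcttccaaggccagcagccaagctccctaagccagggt
Chrnb1: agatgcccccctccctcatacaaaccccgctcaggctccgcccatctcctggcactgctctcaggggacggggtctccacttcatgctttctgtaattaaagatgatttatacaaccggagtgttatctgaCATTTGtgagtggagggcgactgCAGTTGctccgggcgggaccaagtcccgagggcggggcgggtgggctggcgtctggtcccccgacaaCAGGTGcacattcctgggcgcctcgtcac
Chrng: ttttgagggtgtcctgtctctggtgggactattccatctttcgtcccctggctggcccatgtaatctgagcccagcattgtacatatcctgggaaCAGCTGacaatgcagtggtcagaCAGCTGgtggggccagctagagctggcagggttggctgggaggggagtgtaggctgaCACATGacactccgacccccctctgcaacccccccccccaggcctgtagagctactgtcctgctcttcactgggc
Musk: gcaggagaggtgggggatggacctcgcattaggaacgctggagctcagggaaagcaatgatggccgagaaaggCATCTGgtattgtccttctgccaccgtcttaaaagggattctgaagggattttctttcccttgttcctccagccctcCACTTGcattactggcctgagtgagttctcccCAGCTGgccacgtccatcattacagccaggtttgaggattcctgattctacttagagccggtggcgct

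Each of the 4 windows holds 3 E-boxes. Of 32851 promoter windows of the same length, 66.2% hold at least 1 E-box and 12.2% hold at least 3. The form CAGCTG, a subset of CANNTG, occurs 2 times before Chrna1, 2 times before Chrng, 1 time before Musk and not before Chrnb1. At least 1 CAGCTG is present in 13.0% of all windows, and at least 2 in 1.26%. In the Chrna1 window the CAGCTG nearest to the start begins 44 bases before it. The bicoid-type motif TAATCC, searched on both strands and bound by PITX proteins, has no match in these 4 windows and at least 1 in 6.25% of all windows. A match describes the letters only.

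Libraries at E9.5 held 14361921 to 18553034 fragments in genes for Pitx1 KO and 20673065 to 40020115 for wild type. At E11.5 the ranges were 44986883 to 60672153 for Pitx1 KO and 38770845 to 40973178 for wild type, and at E12.5 they were 22361173 to 29993146 for Pitx1 KO and 24290470 to 39397236 for wild type. Depth therefore moved with genotype at E9.5 and E11.5. Pitx1 itself averaged 22.5 RPKM (fragments per kilobase of transcript, scaled to the size of the library) in Pitx1 KO and 54.8 RPKM in wild type at E9.5, 20.2 RPKM in Pitx1 KO and 120 RPKM in wild type at E11.5, and 11.9 RPKM in Pitx1 KO and 90.4 RPKM in wild type at E12.5, with no overlap between the genotypes at any stage. Which part of the gene is deleted is not given in the sources used here. The limb mesenchyme markers Prrx1 and Hand2 were present in all groups, and Chat, the acetylcholine-synthesising enzyme of motor neurons, had 0 fragments in all 12 hindlimb libraries. Slc5a7, another marker on the same neuronal list, had fragments in every one of these libraries.

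In the E9.5 hindlimb field and trunk, Chrnb1 and Rapsn were detected at low levels and the other 4 genes had few or no fragments. All 6 genes had fragments in every wild-type hindlimb library at E11.5, with lower means in Pitx1 KO, and all 6 were higher at E12.5 than at E11.5 in both genotypes. The per-library levels of the 6 genes show this pattern.

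**Figure D1:**
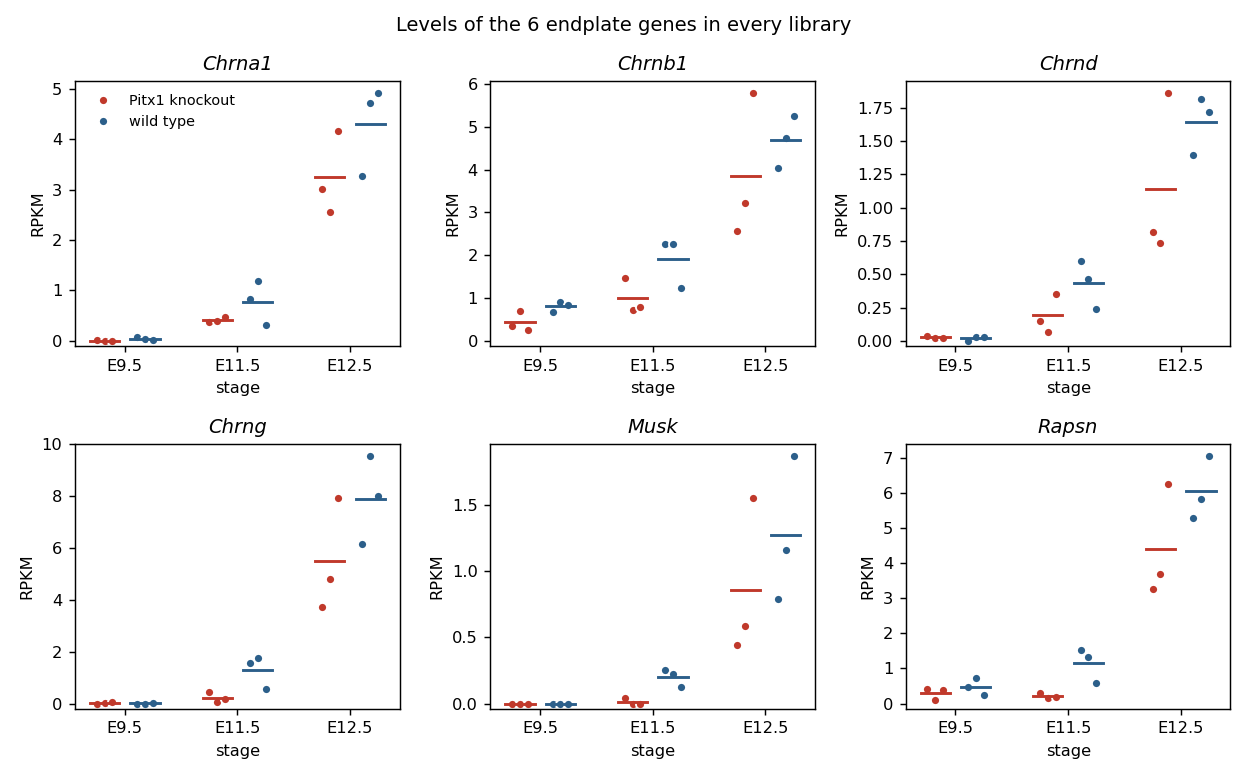
RPKM of each gene (vertical axis, linear from 0) at 3 stages, with Pitx1 knockout libraries in red and wild-type libraries in blue; points are libraries 1 to 3 from left to right and bars are group means. At E11.5 the knockout libraries of Chrng, Musk and Rapsn all lie below the wild-type libraries, and at E12.5 the genotypes overlap for all 6 genes.

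At E11.5, Rapsn was the clearest case. Its level was 0.306, 0.158 and 0.196 RPKM in Pitx1 KO libraries 1 to 3, against 1.53, 1.33 and 0.575 RPKM in wild type. Every knockout library lay below every wild-type library, and wild-type library 3 was the lowest of its group. The group means were 0.220 ± 0.0771 RPKM in Pitx1 KO and 1.15 ± 0.506 RPKM in wild type (SD, n = 3 each). Rapsn fell by 2.37 on the log2 scale (SE 0.476, adjusted p = 0.0392, edgeR's quasi-likelihood test with Benjamini-Hochberg adjustment). It was the only 1 of the 5 members tested to pass the threshold of 0.05. Over all 14601 genes tested at E11.5, 1.96% passed, and 1.01% passed as lower in Pitx1 KO. In these bulk tissues, fewer muscle cells and less RNA per muscle cell cannot be told apart.

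Chrng, the gamma subunit that marks the embryonic form of the receptor, had a difference of similar size. Its level was 0.450, 0.0464 and 0.186 RPKM in Pitx1 KO, against 1.55, 1.76 and 0.557 RPKM in wild type. The genotypes did not overlap, with wild-type library 3 again the lowest of its group. The means were 0.228 ± 0.205 RPKM in Pitx1 KO and 1.29 ± 0.642 RPKM in wild type (SD, n = 3 each). Its log2 fold change was -2.48 (SE 0.733), with an adjusted p of 0.112 by edgeR, above the threshold.

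Musk was close to the detection limit at E11.5. It had 9, 0 and 0 fragments in Pitx1 KO libraries 1 to 3 and 28, 31 and 8 in wild type. All of its knockout fragments came from library 1, and the genotypes did not overlap. Its RPKM was 0.0446, 0 and 0 in Pitx1 KO, against 0.256, 0.220 and 0.124 in wild type, and these values are not proportional to its fragments from library to library. Summed over libraries, 9 fragments in Pitx1 KO stood against 67 in wild type, a ratio per fragment sequenced of 0.0964 (95% exact interval 0.0423 to 0.194, which covers counting error only). The gene was below the filter on low counts, so it has no value in the E11.5 test.

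The alpha, beta and delta subunit genes had smaller differences, and their genotypes overlapped. Chrna1 was at 0.383, 0.387 and 0.470 RPKM in Pitx1 KO, against 0.830, 1.18 and 0.308 RPKM in wild type. Wild-type library 3 lay below all 3 knockout libraries, and the log2 fold change was -0.91 (SE 0.420, adjusted p = 0.241, edgeR). Chrnb1 was at 1.48, 0.721 and 0.788 RPKM in Pitx1 KO, against 2.26, 2.26 and 1.23 RPKM in wild type. Knockout library 1 exceeded wild-type library 3, and the log2 fold change was -0.94 (SE 0.348, adjusted p = 0.155, edgeR). Chrnd was at 0.151, 0.0692 and 0.355 RPKM in Pitx1 KO, against 0.598, 0.465 and 0.242 RPKM in wild type. Knockout library 3 exceeded wild-type library 3, and the log2 fold change was -1.21 (SE 0.581, adjusted p = 0.256, edgeR).

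Across the 6 genes at E11.5, the knockout mean was lower in 6 of 6, and 3 of 6 had no overlap between genotypes, against 14.0% of all genes tested with every knockout library below every wild-type library. Musk, 1 of the 3, was below the filter and is not among the genes behind that share. Of the 5 members tested, Chrng and Rapsn had no overlap. The median log2 fold change of the 5 members tested was -1.21, against -0.013 over all genes. Wild-type library 3 was the lowest wild-type library for 6 of 6 genes. Without it, Chrna1 passed (log2 fold change -1.28, adjusted p = 0.0384, edgeR) and Rapsn stayed past the threshold (adjusted p = 0.0167). The Rapsn call was lost without wild-type library 1 (adjusted p = 0.217), wild-type library 2 (0.0933), knockout library 2 (0.0921) or knockout library 3 (0.194), all by edgeR, and Chrng passed without knockout library 1 (log2 fold change -3.51, adjusted p = 0.0351).

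Muscle markers moved with genotype at E11.5 as well. The summed level of 28 contractile genes was 15.8 to 29.9 RPKM in Pitx1 KO and 48.6 to 204 RPKM in wild type, where library 3 was again the lowest. Over all 14601 genes tested at this stage, 1.01% fell and 52.1% had a negative fold change. Of 24 contractile genes tested, 5 fell, 23 had a negative fold change and the median was -2.74 on the log2 scale. Examples are Smyd1, a myosin chaperone partner (log2 fold change -3.04, SE 0.416), and Atp2a1, the calcium pump of fast muscle (-2.28, SE 0.353). The summed level of 14 myogenic regulators was 66.0 to 70.2 RPKM in Pitx1 KO and 101 to 132 RPKM in wild type. Of 13 regulators tested, 5 fell and all 13 were negative, with Msc at -1.39 (SE 0.169) and Pax7, a marker of muscle progenitors, at -2.95 (SE 0.493). Myod1 averaged 4.24 RPKM in Pitx1 KO and 12.7 RPKM in wild type (log2 fold change -1.58, adjusted p = 0.0608, edgeR), and Myog averaged 4.41 RPKM in Pitx1 KO and 20.4 RPKM in wild type (-2.20, adjusted p = 0.106). Their part in the receptor gene differences was not tested.

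At E12.5 all 6 genes had a lower mean in Pitx1 KO, but no difference passed. Chrng, the highest of the 6 genes per length, was at 3.71, 4.81 and 7.92 RPKM in Pitx1 KO, against 6.14, 9.54 and 8.01 RPKM in wild type. Rapsn was at 3.25, 3.69 and 6.24 RPKM in Pitx1 KO, against 5.28, 5.81 and 7.05 RPKM in wild type. In both genes, knockout libraries 1 and 2 lay below all wild-type libraries and knockout library 3 lay within the wild-type range. The log2 fold changes were -0.53 for Chrng (SE 0.288, adjusted p = 0.421, edgeR) and -0.46 for Rapsn (SE 0.256, adjusted p = 0.421, edgeR).

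Chrna1 was at 3.01, 2.57 and 4.16 RPKM in Pitx1 KO, against 3.28, 4.71 and 4.91 RPKM in wild type at E12.5. Chrnb1 was at 2.56, 3.22 and 5.79 RPKM in Pitx1 KO, against 4.04, 4.75 and 5.26 RPKM in wild type. For Chrna1 and Chrnb1, knockout libraries 1 and 2 again lay below all wild-type libraries, and knockout library 3 lay above at least 1 of them. Chrnd was at 0.818, 0.736 and 1.86 RPKM in Pitx1 KO, against 1.39, 1.82 and 1.72 RPKM in wild type. Musk was at 0.443, 0.587 and 1.55 RPKM in Pitx1 KO, against 0.789, 1.16 and 1.87 RPKM in wild type. Knockout library 3 exceeded all wild-type libraries for Chrnb1 and Chrnd and 2 of 3 for Musk. The log2 fold changes were -0.41 for Chrna1, -0.28 for Chrnb1, -0.54 for Chrnd and -0.48 for Musk, with adjusted p from 0.407 to 0.674 (edgeR).

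None of the 6 genes was called at E12.5 by edgeR, DESeq2 or limma, and 0 of 6 had an unadjusted p under 0.05 by edgeR. In none of the 6 did the genotypes separate, against 10.3% of all genes with every knockout library below every wild-type library. Over all 14494 genes tested at this stage 0.0138% were called by edgeR. Pitx1 itself was not among them (log2 fold change -2.92, SE 0.399, adjusted p = 0.125, edgeR). Its wild-type libraries were at 114.2, 112.5 and 44.64 RPKM. A missing call at this stage therefore does not show that a difference is small. The median log2 fold change of the 6 members was -0.47, against -0.000 over all genes. Knockout library 3 was the highest knockout library for 6 of 6 genes. Without it the log2 fold changes ran from -0.63 to -1.27, with adjusted p from 0.172 to 0.2499 (edgeR).

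Marker lists of several cell types had negative medians at E12.5, with 0 genes called in each of them. Over all genes tested at this stage, 50.1% had a negative fold change. The summed contractile level was 469 to 1121 RPKM in Pitx1 KO and 985 to 1626 RPKM in wild type, all 28 contractile genes had a negative fold change, and the median was -0.97. The 14 regulators had a median of -0.18, and 8 of 14 were negative. Schwann cell markers summed to 7.73 to 13.9 RPKM in Pitx1 KO and 11.54 to 18.1 RPKM in wild type, with 7 of 7 negative and a median of -0.57. The contractile and Schwann cell sums overlapped between genotypes. Macrophage markers summed to 12.9 to 18 RPKM in Pitx1 KO and 20.3 to 22.9 RPKM in wild type, with 6 of 6 negative, a median of -0.54 and no overlap between genotypes. Neuronal markers summed to 42.7 to 49.7 RPKM in Pitx1 KO and 52.9 to 61.3 RPKM in wild type, also with no overlap, and 4 of 7 tested were negative, with a median of -0.24. Chat was the only gene of these lists at 0 throughout a group, and it was at 0 in both. Their part in the member differences was not tested.

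At E9.5 only Chrnb1 and Rapsn passed the filter on low counts. Chrnb1 was at 0.353, 0.698 and 0.259 RPKM in Pitx1 KO, against 0.674, 0.918 and 0.846 RPKM in wild type. Only knockout library 2 reached the wild-type range, and the log2 fold change was -0.88 (SE 0.469, adjusted p = 0.999, edgeR). Rapsn was at 0.416, 0.115 and 0.400 RPKM in Pitx1 KO, against 0.479, 0.725 and 0.243 RPKM in wild type. The genotypes overlapped, and the log2 fold change was -0.63 (SE 0.647, adjusted p = 0.999, edgeR). None of the 2 was called, against 0.0217% of 13804 genes tested, and none had an unadjusted p under 0.05.

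The other 4 genes had few or no fragments at E9.5. Chrna1 had 1 fragment over the 3 Pitx1 KO libraries and 19 over the 3 wild-type libraries, 15 of them in wild-type library 1, and the ratio per fragment sequenced was 0.0898 (95% exact interval 0.00216 to 0.565, counting error only). Chrnd had 4 fragments in each genotype, and Chrng had 3 in Pitx1 KO and 1 in wild type. Musk had 0 fragments in each genotype, which allows up to 0.0601 CPM (fragments scaled to library size) in Pitx1 KO and 0.0352 CPM in wild type. A difference in these 4 genes was not detectable at this depth, apart from the count of Chrna1, which rests largely on 1 library.

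From E11.5 to E12.5 all 6 genes rose in both genotypes. In Pitx1 KO the log2 fold changes, E12.5 over E11.5, were 2.90 for Chrna1, 1.86 for Chrnb1, 2.51 for Chrnd, 4.48 for Chrng, 5.49 for Musk and 4.22 for Rapsn. In wild type they were 2.40 for Chrna1, 1.22 for Chrnb1, 1.85 for Chrnd, 2.54 for Chrng, 2.70 for Musk and 2.33 for Rapsn. Adjusted p ran from 6.975e-05 to 0.00289 in Pitx1 KO and from 0.000757 to 0.0178 in wild type (edgeR). Of all 15324 genes tested, 20.4% rose in Pitx1 KO and 17.1% rose in wild type. For 6 of 6 genes, every E12.5 knockout library lay above every E11.5 wild-type library.

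Chrnb1 rose least of the 6 in both genotypes, 3.64-fold in Pitx1 KO and 2.33-fold in wild type. The Musk fold in Pitx1 KO is set against 2 libraries with 0 fragments and so depends on the prior count of the fit, and its log2 value ran from 4.70 to 9.54 with 1 library left out. The wild-type call was lost for Chrnb1 (adjusted p = 0.0689), Chrnd (0.0617) and Musk (0.0561) without E11.5 wild-type library 3, and for Chrnb1 (0.0586) and Musk (0.0528) without E12.5 wild-type library 3, all by edgeR. Contractile genes rose in 28 of 28 cases in each genotype, with medians of 5.43 in Pitx1 KO and 3.44 in wild type on the log2 scale, beside member medians of 3.56 in Pitx1 KO and 2.37 in wild type. Schwann cell markers rose in 5 of 7 cases in Pitx1 KO and 6 of 7 in wild type.

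**Figure D2:**
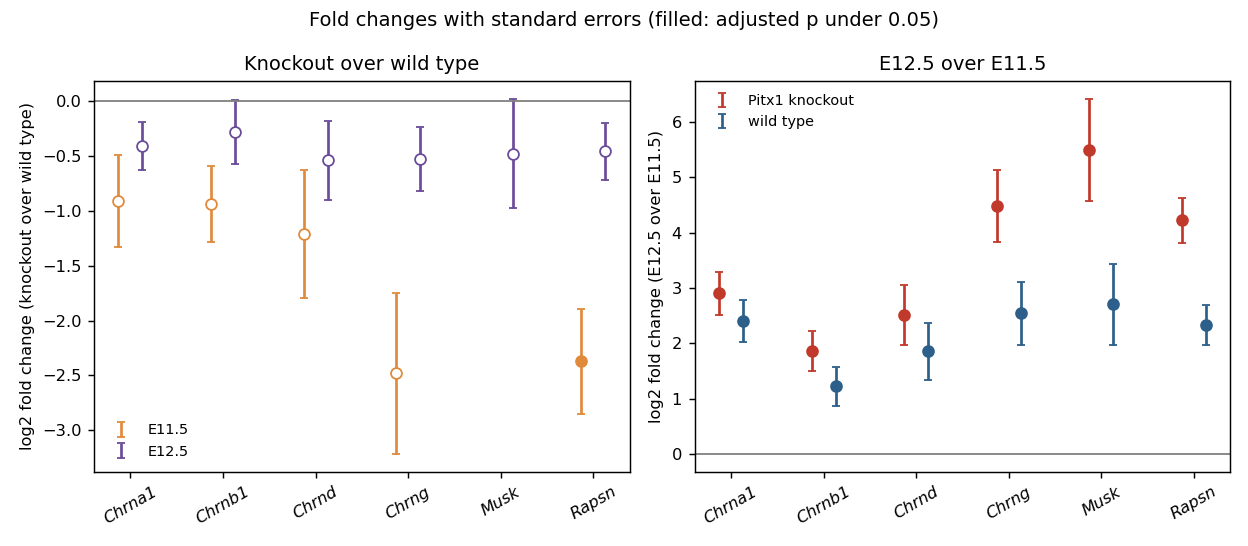
Log2 fold changes with standard errors of each gene, knockout over wild type at E11.5 and E12.5 (left panel) and E12.5 over E11.5 in Pitx1 knockout and in wild type (right panel). Filled points passed adjusted p under 0.05; Rapsn at E11.5 is the only filled point on the left, all 12 are filled on the right, and Musk has no E11.5 point because it was below the filter.

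The point estimates of the knockout difference were nearer to 0 at E12.5 than at E11.5 for the 5 members tested at both stages. The change from the fit of both stages, E12.5 minus E11.5 in log2 fold change, was 0.49 for Chrna1, 0.64 for Chrnb1, 0.67 for Chrnd, 1.94 for Chrng, 2.79 for Musk and 1.89 for Rapsn. Musk has 0 fragments in 2 of 3 knockout libraries at E11.5, and its value depends on the prior count of the fit. With 1 library left out the change ran from 1.99 to 6.85 for Musk and from 1.43 to 3.0 for Chrng, in both cases highest without E11.5 knockout library 1, the 6.85 being set against 0 Musk fragments. The interaction test called 0 of 6, against 0.00653% of 15324 genes, and the adjusted p was lowest for Rapsn (SE 0.519, adjusted p = 0.320, edgeR). Before adjustment, 3 of 6 members (Rapsn, Chrng and Musk) and 1585 of all genes had an edgeR p under 0.05. DESeq2 called Rapsn here (adjusted p = 0.0470). Between E11.5 and E9.5 the same test called 0 of 5 members, against 0.0260% of 15372 genes, and DESeq2 also called 0 members. Before adjustment, 1 of 5 members and 2344 of the 15372 genes had an edgeR p under 0.05 there. The tissues of these 2 stages differ, so stage and dissection cannot be told apart there.

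The order of the 6 genes per length differed between the stages. At E12.5 the mean levels ran Chrng, Rapsn, Chrnb1, Chrna1, Chrnd and Musk from high to low in both genotypes, with 5.48, 4.40, 3.86, 3.25, 1.14 and 0.861 RPKM in Pitx1 KO and 7.90, 6.05, 4.68, 4.30, 1.64 and 1.28 RPKM in wild type. Neighbours in that order overlapped, except Chrna1 above Chrnd in both genotypes and Rapsn above Chrnb1 in wild type. At E11.5 Chrnb1 was the highest in both genotypes, with 0.996 ± 0.420 RPKM in Pitx1 KO and 1.91 ± 0.593 RPKM in wild type (SD, n = 3 each). In Pitx1 KO Chrna1 came next at 0.413 ± 0.0494 RPKM, above Chrng at 0.228 RPKM, whose libraries it overlapped, and Rapsn at 0.220 RPKM, whose libraries it did not. In wild type Chrng at 1.29 RPKM and Rapsn at 1.15 RPKM came next, above Chrna1 at 0.774 ± 0.441 RPKM, and all of these overlapped.

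Ratios to Chrna1 within a library show the same exchange of places, except for Chrng in knockout library 1. The ratio of Chrng to Chrna1 at E11.5 was 1.18, 0.120 and 0.396 in Pitx1 KO, against 1.87, 1.48 and 1.81 in wild type. The knockout values rest on 50, 5 and 15 Chrng fragments. The ratio of Rapsn to Chrna1 at E11.5 was 0.800, 0.408 and 0.416 in Pitx1 KO, against 1.85, 1.13 and 1.87 in wild type. Neither ratio overlapped between genotypes at E11.5, with log2 differences of -2.16 and -1.61. At E12.5 the same ratios overlapped, with means of 1.67 ± 0.379 in Pitx1 KO and 1.84 ± 0.197 in wild type for Chrng, and 1.34 ± 0.225 in Pitx1 KO and 1.43 ± 0.189 in wild type for Rapsn (SD, n = 3 each). The ratios of Chrnd and Chrnb1 to Chrna1 overlapped at both stages. These ratios were chosen after their values were seen; of 8 compared, the smallest exact two-sided permutation p was 0.1, the lowest that 3 against 3 libraries can give (0.4 after Benjamini-Hochberg adjustment).

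**Figure D3:**
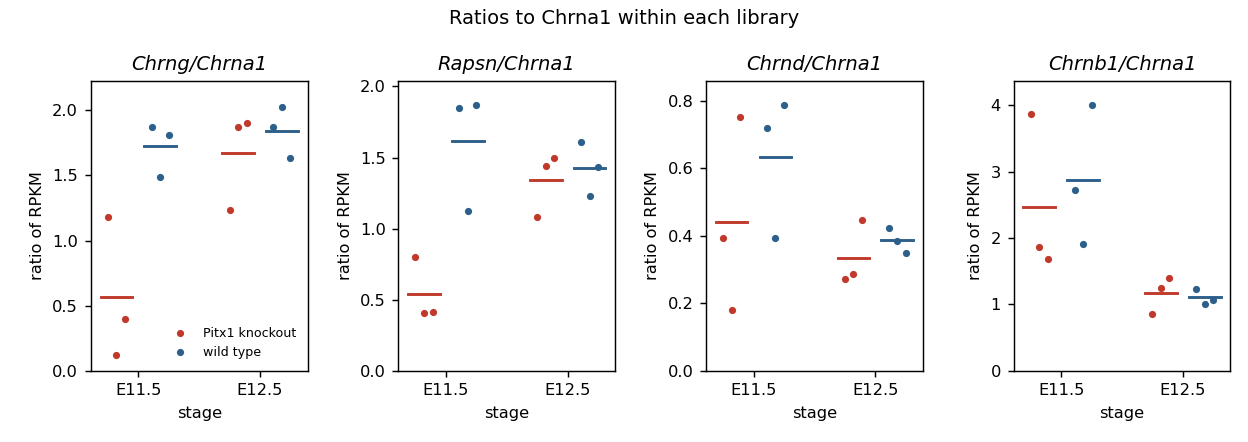
Ratio of each gene's RPKM to that of Chrna1 in the same library (linear axis from 0) at E11.5 and E12.5, with Pitx1 knockout in red and wild type in blue; points are libraries and bars are means. At E11.5 the knockout libraries lie below the wild-type libraries for Chrng and Rapsn, and the genotypes overlap in the other 6 sets.

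The epsilon subunit gene, Chrne, which replaces gamma in mature muscle, was near 0 throughout. At E11.5 it had 1 fragment in Pitx1 KO and 0 in wild type over 3 libraries each. At E12.5 it had 4, 2 and 2 fragments in Pitx1 KO, against 0, 0 and 1 in wild type, a ratio per fragment sequenced of 9.62 (95% exact interval 1.29 to 427, counting error only). Chrng had 744 fragments in Pitx1 KO and 1322 in wild type in the same libraries.

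Partners of MuSK and rapsyn at the endplate included no gene that passed the knockout test at E11.5 or E12.5. Of 34 genes listed, 32 were tested at E11.5, none was called, 24 had a negative fold change, against 52.1% of all genes, and the median was -0.11. At E12.5 again none of 32 was called, 23 were negative, against 50.1% of all genes, and the median was -0.10. At an unadjusted p under 0.05, 3238 genes of the whole table stood out at E11.5 and 2185 at E12.5. Dok7, the cytoplasmic activator of MuSK, had the largest fold change of the list at E11.5. It was at 0.129, 0.0280 and 0.0560 RPKM in Pitx1 KO, against 0.269, 0.428 and 0.252 RPKM in wild type. The genotypes did not overlap, and the log2 fold change of -2.12 (SE 0.587) did not pass (adjusted p = 0.0805, edgeR).

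The agrin receptor gene Lrp4 and the agrin gene Agrn, both also expressed outside muscle, had higher mean levels than all 6 genes at E11.5. Lrp4 averaged 5.795 RPKM in Pitx1 KO and 6.09 RPKM in wild type at E11.5 (log2 fold change -0.07, SE 0.0749, edgeR adjusted p = 0.620), and 6.93 RPKM in Pitx1 KO and 6.84 RPKM in wild type at E12.5. Agrn averaged 34.6 RPKM in Pitx1 KO and 45.4 RPKM in wild type at E11.5 (-0.39, SE 0.176, adjusted p = 0.251, edgeR), and 52.9 RPKM in Pitx1 KO and 57.3 RPKM in wild type at E12.5. Ache, the enzyme that breaks down acetylcholine, averaged 2.28 ± 1.37 RPKM in Pitx1 KO and 4.65 ± 1.28 RPKM in wild type at E12.5 (SD, n = 3 each; log2 fold change -1.03, adjusted p = 0.320, edgeR). Colq, the collagen tail that anchors acetylcholinesterase, averaged 0.983 RPKM in Pitx1 KO and 0.824 RPKM in wild type at E12.5 (0.24, adjusted p = 0.806, edgeR).

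From E11.5 to E12.5 the endplate partners rose in 15 of 33 cases and fell in 5 in Pitx1 KO, and rose in 12 and fell in 3 in wild type. Of all 15324 genes tested, 20.4% rose in Pitx1 KO and 17.1% rose in wild type. Counting both directions, 6357 of them passed in Pitx1 KO and 5113 in wild type. Sntb1, which encodes a syntrophin, rose by 1.70 in Pitx1 KO and 1.48 in wild type on the log2 scale. Dok7 rose by 3.38 in Pitx1 KO and 1.71 in wild type. Erbb2, a neuregulin receptor subunit, rose by 0.68 in Pitx1 KO and 0.57 in wild type. Lrp4 did not pass in either genotype, with log2 fold changes of 0.19 (adjusted p = 0.0570, edgeR) in Pitx1 KO and 0.12 (adjusted p = 0.248) in wild type.

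Of 13 neuronal receptor subunits and chaperones, 7 were tested at E11.5, with a median log2 fold change of -0.45. All 7 were negative, against 52.1% of all genes, and 1 fell, against 1.01% of all genes. The 1 was Chrna4, the alpha subunit of a main brain receptor, with 0.140 ± 0.0516 RPKM in Pitx1 KO and 0.497 ± 0.121 RPKM in wild type (SD, n = 3 each; log2 fold change -1.81, SE 0.377, adjusted p = 0.0432, edgeR). Neuronal markers as a list had a median of 0.04 at E11.5, with 4 of 8 negative, and summed to 46.4 to 66.4 RPKM in Pitx1 KO and 48.7 to 52.8 RPKM in wild type. Among the motor neuron genes of that list, Chat was at 0 in both groups, and Slc18a3 had 3 fragments in Pitx1 KO and 4 in wild type. Slc5a7 had 84 fragments in each genotype, and Mnx1 had 119 in Pitx1 KO and 114 in wild type.

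Set against the contractile genes of the same library, the 6 genes gave a different picture from their own levels. The measure was log2(RPKM + 0.1) of a gene minus the mean log2(RPKM + 0.1) of the 28 contractile genes. At E12.5 the difference, Pitx1 KO minus wild type, was positive for all 6, at 0.68 for Chrna1, 0.73 for Chrnb1, 0.48 for Chrnd, 0.51 for Chrng, 0.47 for Musk and 0.58 for Rapsn. With the 14 myogenic regulators as the list in place of the contractile genes, all 6 differences turned negative, from -0.20 to -0.46. For 5 of the 6 genes, all but Chrnd, the genotypes did not overlap against the contractile list, with an exact two-sided permutation p of 0.1, the smallest that 3 against 3 allows.

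At E11.5 Chrna1 relative to the contractile list was 0.04, 0.12 and 0.84 in Pitx1 KO, against -0.71, -0.93 and -0.69 in wild type. All knockout libraries lay above all wild-type libraries, by a mean of 1.11 (exact two-sided permutation p = 0.1), and the difference was 0.26 against the regulators. Differences for the other 5 genes overlapped between genotypes, at 0.83 for Chrnb1, 0.79 for Chrnd, 0.35 for Musk, -0.17 for Rapsn and -0.42 for Chrng, and against the regulators all 5 were negative. Musk was at 0.0446, 0 and 0 RPKM in Pitx1 KO, all under the 0.1 RPKM added before the log. Its value here depends on that constant and does not measure the size of its change. The contractile mean at E11.5 was -1.09, -1.16 and -1.65 in Pitx1 KO, against 0.60, 1.29 and -0.61 in wild type. A positive difference therefore does not mean a higher level in Pitx1 KO at this stage either. The 12 comparisons, 6 genes at 2 stages, could not reach p under 0.10.

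**Figure D4:**
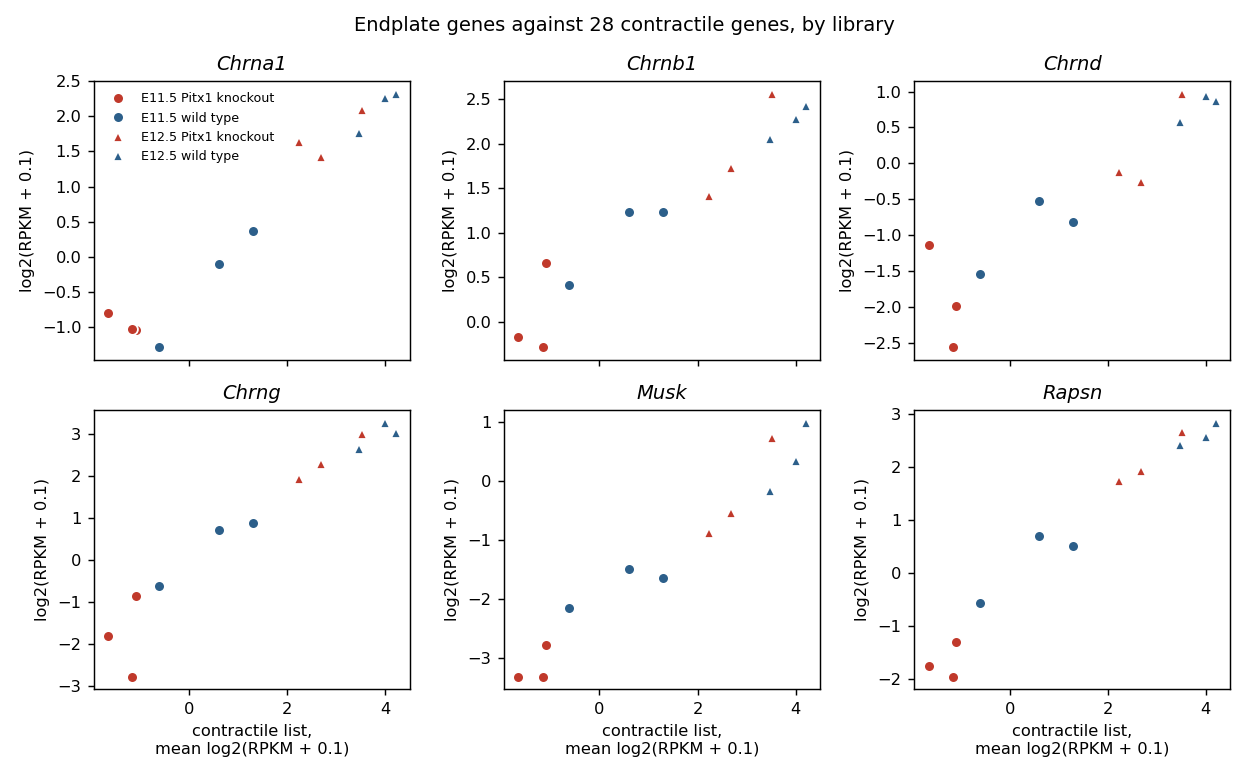
Log2(RPKM + 0.1) of each gene (vertical axis) against the mean log2(RPKM + 0.1) of 28 contractile genes (horizontal axis) in the 12 hindlimb libraries; red is Pitx1 knockout, blue is wild type, circles are E11.5 and triangles are E12.5. In all 6 panels the E12.5 libraries lie to the upper right of the E11.5 libraries, and the E11.5 knockout libraries have the lowest contractile means.

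The 6 genes varied together over the 12 hindlimb libraries, with Pearson r between 0.913 and 0.990 over their 15 pairs, on log2 CPM. The libraries fall into 2 stages that differ in every gene of the 6, so these values describe the whole set and carry no test. Among 15318 other genes, the 8 most like their mean profile were Hfe2, Gaa, Atp2a1, Arpp21, Camk2a, Synpo2l, D8Ertd82e and Tmem8c, with r from 0.988 to 0.992. Tmem8c encodes the myoblast fusion protein myomaker, and Atp2a1 is on the contractile list. The 100 most alike held 13 of 28 contractile genes, 2 of 14 myogenic regulators and 1 of 33 endplate partners.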

How the data were processed

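RNA was measured by stranded mRNA sequencing in 18 libraries. Per the submitters' processing notes, the tools were FastQC, TopHat2 and Cuffdiff and the build was mm9. The strand setting of the counting is not given in the sources used here. Per the file headers, the authors deposited for each gene and replicate an estimated count of fragments and an RPKM value. The deposited fragment counts were whole except for 1.79% of values, and they were rounded to whole numbers. Of 23929 genes listed, 2 date-like names shared by 2 genes each and 6 genes listed at 0 with a failed status were left out, which left 23919. Replicate numbers 0 to 2 of each condition were read as replicates 1 to 3 of the labels. No 2 libraries of a group agreed within sampling noise.

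Each knockout comparison used the 6 libraries of its stage, and stage effects and interactions used the 12 libraries of 2 stages. Counts were tested in edgeR 4.0.16 (quasi-likelihood, TMM scaling, robust step, filterByExpr) under R 4.3.3, adjusted over all genes tested at a threshold of 0.05, and the scripts were tested on simulated data. Alternatives used DESeq2 1.42.0, limma 3.58.1 on log2 RPKM, other scaling, filters and library sets, and leaving out each library in turn. Exact intervals are at 95%, and a count of 0 allows 3 counts. No gene other than 2 predicted genes absent from the tables overlaps a member in the annotation used (Gm30940 at Chrna1, Gm13778 at Rapsn), and Zbtb4 and Fgf11 lie close to Chrnb1.

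The members and all lists were chosen with earlier results of these data known. Beside the members, the genes named are Pitx1, Chrne, Myod1, Myog, Agrn, Lrp4, Dok7, Colq, Ache, up to 4 called genes of each list with the lowest adjusted p, and the 8 genes most like the members' mean profile. Prrx1, Hand2, Chat, Slc5a7, Slc18a3, Mnx1 and the Dok7 stage values were added after values were seen. One gene that this rule names is not reported here.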

Additional observations from a re-analysis of the deposited data

How the results depend on the processing

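The knockout effect was negative in all 14 settings tried for the 5 members tested at E11.5 and for all 6 at E12.5, but few calls were stable. Musk was below the filter at E11.5 and was negative in the 6 settings that gave it a value. At E11.5, 1 member was called; the number was 0 without the robust step, 0 with limma on log2(RPKM + 1), 2 with DESeq2 and 2 with all 18 libraries in 1 fit, and 0 to 3 when 1 library was left out. Pairing by replicate number was checked on each library's deviations from the gene means of its group. Correlations of these deviations between same-numbered knockout and wild-type libraries ran from -0.39 to 0.23 over the stages. The main fits treated libraries as unpaired. The correlations at E12.5 were 0.17, -0.03 and 0.23, against -0.22 to 0.05 for differently numbered libraries. A pairing at that stage is therefore not excluded. The replicate block gave 0 members at E11.5. The Rapsn adjusted p was 0.0501 without the robust step, 0.0637 with the block, 0.0638 with limma on log2(RPKM + 1) and 0.000754 with DESeq2. Over all genes at E11.5 the count was 286, against 1312 with DESeq2, 692 with all 18 libraries, 525 with no filter, 149 with limma on log2(RPKM + 1), 100 with the block and 9 to 642 with 1 library left out. At E12.5 it was 2, against 441 with DESeq2, 386 with the block, 23 with all 18 libraries and 4 to 5 with no filter or limma, and at E9.5 it was 3, against 19 with DESeq2 and 0 with the block or all 18 libraries. The interaction of E12.5 with E11.5 called 1 gene, against 120 with DESeq2, of which 1 is a member, and that of E11.5 with E9.5 called 4, against 383 with DESeq2 and 15 with all 18 libraries; without the robust step both called 0. Between E11.5 and E9.5 the Chrnb1 value of -0.06 became 0.01 with the block and -0.46 to 0.45 with 1 library left out. The 6 wild-type stage calls became 3 to 6 with 1 library left out.

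Relative to the contractile list, 2 members were lower in Pitx1 KO at E11.5, against 0 with log2(RPKM + 1), 5 with the regulators as the list and 0 to 3 with 1 library left out; at E12.5 it was 0, against 6 with the regulators. With log2(RPKM + 1), Chrng at E11.5 was 0.06 and Rapsn 0.14. With the regulators, E11.5 gave -0.02 for Chrnb1, -0.06 for Chrnd and -0.50 for Musk, and E12.5 gave -0.25 for Chrna1, -0.20 for Chrnb1, -0.44 for Chrnd, -0.41 for Chrng, -0.46 for Musk and -0.34 for Rapsn. With 1 library left out, the E11.5 values ran from -0.80 to 0.13 for Chrng, -0.45 to 0.05 for Rapsn and -0.03 to 0.67 for Musk. The log2 ratios to Chrna1, tried after the values were seen, ran from -0.27 to 0.04 for Chrng and -0.20 to 0.05 for Rapsn at E12.5, and for Chrnb1 from -0.64 to 0.01 at E11.5 and -0.09 to 0.26 at E12.5; at E11.5 the Chrng ratio stayed between -2.97 and -1.33 and the Rapsn ratio between -1.93 and -1.45. The cause of these shifts was not tested. Depth limits Musk at E11.5 and Chrna1, Chrnd, Chrng and Musk at E9.5.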
